A study of Mus musculus with 12 samples.

Results

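The transcripts described here are 9 components of hepatic growth hormone, insulin-like growth factor (IGF) and insulin signalling: Ghr, Stat5b, Igf1, Igfals, Igfbp2, Igfbp4, Insr, Irs1 and Irs2. They were taken by symbol, through their Ensembl identifiers, from a count table of 50686 mouse genes, and all 9 were among the 14248 genes with enough counts to be tested. The livers came from FVB/N mice aged 6 to 8 weeks. Every mouse received, by tail vein, lipid nanoparticles loaded with a small interfering RNA (siRNA). The dose was 0.5 mg/kg, given as 1 injection in 5 days. The siRNA was either directed at Eif3m, which encodes a subunit of the translation initiation complex eIF3, or was a scrambled luciferase control. Livers were taken at day 9 or at day 13, which gave 4 groups of 3 libraries: day 9 control, day 9 Eif3m siRNA, day 13 control and day 13 Eif3m siRNA. Whole ground liver was used, so each value is an average over hepatocytes and all other liver cells. The labels call the libraries replicates of livers without saying that each is a separate animal, and p-values therefore measure the spread between these libraries, which may be technical.

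Growth hormone binds its receptor, the product of Ghr, on hepatocytes and activates the kinase JAK2, which phosphorylates the transcription factor STAT5b. STAT5b then drives transcription of Igf1 and of Igfals, whose product, the acid-labile subunit, holds circulating IGF1 in a large complex with a binding protein. It also drives feedback inhibitors such as SOCS2 and CISH. Insulin acts through its own receptor, the product of Insr, and through the adaptor proteins IRS1 and IRS2 to activate PI3 kinase and AKT. AKT keeps the transcription factor FOXO1 out of the nucleus and promotes lipogenic and glycolytic gene expression. The IGF-binding proteins encoded by Igfbp1, Igfbp2, Igfbp4 and related genes bind free IGF, and several of them respond to growth hormone or insulin in liver.

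The libraries held 38783564 to 54538581 counts at day 9 and 7650269 to 9630027 counts at day 13. The day 13 libraries also varied more, with a median SD of log2 CPM (counts scaled to a common library size) within a group of 0.27 and 0.25, against 0.15 and 0.13 at day 9. The days separated on the first principal component (41.9% of the variance), so each siRNA effect was taken against the controls of its own day. The libraries of each day also carry their own series of names. Day therefore cannot be told apart from library set, which holds for every comparison between the days below. On the third component (8.64% of the variance), day 13 control replicate 3 and day 13 siRNA replicate 2 lay apart from the other libraries of their groups. Results at day 13 were therefore also computed without these libraries. Eif3m itself fell to 10.7% of control at day 9 and to 6.53% at day 13, with no overlap between groups at either day. The hepatocyte markers were abundant in every library, with summed levels of 96157 to 208050 CPM. Of 9 hepatocyte markers tested, 2 fell at day 9 (22.2%), against 6.84% of all genes tested. At day 13, 1 rose (11.1%) and 3 fell (33.3%), against 12.8% and 10.9%.

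Of the 9 genes, 1 rose and 1 fell at day 9, and 1 rose and 2 fell at day 13, at a Benjamini-Hochberg adjusted p under 0.05 in edgeR's quasi-likelihood test. Over all genes tested, 5.94% rose and 6.84% fell at day 9, and 12.8% rose and 10.9% fell at day 13. With so few genes, these counts are close to the background and are no result about the 9 genes as a group. Igfals fell and Igfbp2 rose at both days, and Ghr fell at day 13. No overlap between the 3 siRNA and 3 control libraries was seen for 5 of the 9 genes at day 9 and for 3 at day 13, against 43.5% and 33.2% of all genes tested. The median log2 fold change of the 9 genes was −0.03 at day 9 and −0.19 at day 13, against 0.01 and 0 over all genes tested. None of the 9 passed the test of a difference in effect between the days, where 0.898% of all genes were higher and 1.66% lower at day 13 than at day 9. In that test 1 of the 9, Ghr, had an unadjusted p under 0.05, as did 2598 of all 14248 genes tested. DESeq2 and limma-voom also called 0 of the 9. At day 9, 5 were called when that day was fitted on its own 6 libraries, a setting that called 3412 of all 14817 genes tested. Without the day 13 libraries that stood apart, 4 were called, beside 3050 of all 15591 genes tested. The main fit called 1821 of 14248 at day 9. The smallest p that an exact two-sided permutation test of 3 against 3 libraries can give is 0.1, so calls rest on the model across all genes.

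**Figure D1:**
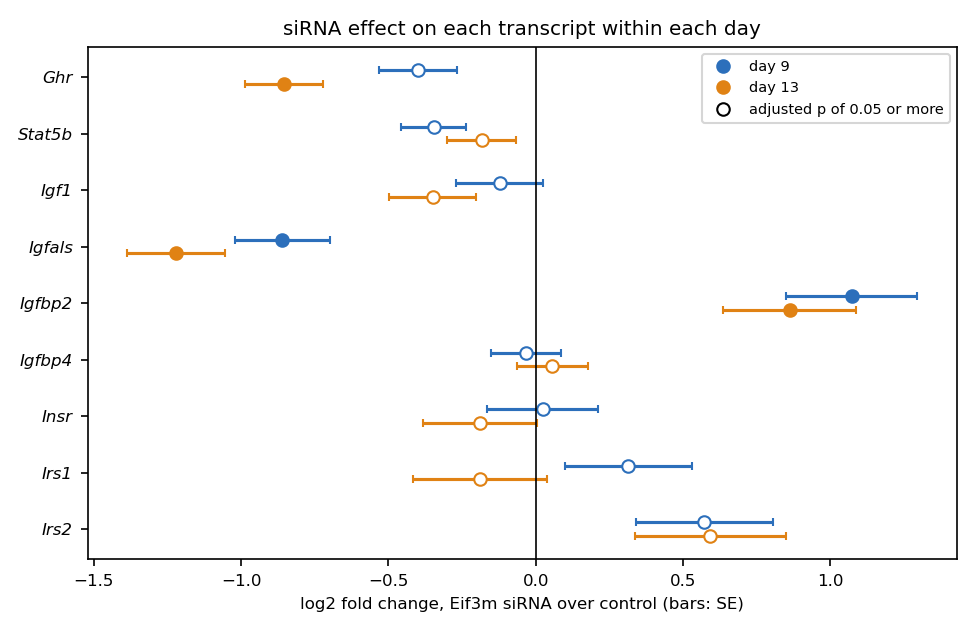
Log2 fold change of Eif3m siRNA over control for each of the 9 genes (horizontal axis; bars are the standard error) at day 9 (blue) and day 13 (orange), with filled points for an adjusted p under 0.05. Igfals lies to the left and Igfbp2 to the right of 0 at both days, and Ghr is filled at day 13 only.

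Ghr, the growth hormone receptor gene, was measured at 549, 672 and 597 CPM in the day 9 controls and at 499, 404 and 476 CPM in the day 9 siRNA libraries. In the day 13 livers Ghr stood at 455, 514 and 600.0 CPM in the controls and at 274, 318 and 276 CPM in the siRNA libraries. The siRNA libraries lay below all controls at both days, by a wider margin at day 13. Ghr fell by 0.85 on the log2 scale at day 13 (SE 0.133, adjusted p = 0.000469), to 55.3% of control. The day 9 log2 fold change was −0.40 (SE 0.132) and missed the threshold, with an adjusted p of 0.0627. The effect at day 13 minus that at day 9 was −0.45 (95% interval −0.86 to −0.05, adjusted p = 0.210), so a difference between the days was not established after adjustment.

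Stat5b encodes the transcription factor that carries the growth hormone signal to the nucleus. Its levels were 57.8, 65.8 and 57.4 CPM in the day 9 controls and 48.2, 49.3 and 44.8 CPM in the day 9 siRNA libraries, which were all lower. At day 13 the controls had 40.9, 48.2 and 41.2 CPM and the siRNA libraries 34.5, 36.8 and 43.1 CPM, and the groups overlapped. Neither change passed the test, with log2 fold changes of −0.35 (SE 0.111, adjusted p = 0.0568) at day 9 and −0.18 (SE 0.118, adjusted p = 0.288) at day 13. Stat5a lies beside Stat5b and is a close copy of it, and how the estimated counts divide reads between them is not known, so the value of either is uncertain.

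The rest of the growth hormone pathway was read from a list of 13 genes of the receptor, the JAK-STAT5 route and its feedback, of which 12 were tested. At day 9 none passed the test in edgeR. At an unadjusted p under 0.05, 1 rose and 3 fell, beside 3902 of all 14248 genes tested in either direction. DESeq2 called 1 up and 2 down, beside 2599 of all genes, and limma-voom called 2 down, beside 2749. With 12 genes, these counts were close to the background. At day 13, 4 of the 12 (33.3%) fell, against 10.9% of all genes tested, and the list median was −0.32 on the log2 scale against 0 over all genes. Without the 2 libraries that stood apart, 3 fell at day 13. Ghr, Socs2 and Jak2 were among those that fell at day 13. Jak2, the kinase bound to the growth hormone receptor, had 16.6, 16.1 and 20.6 CPM in the controls and 12.2, 15.3 and 12.7 CPM in the siRNA libraries at day 13 and fell by 0.40 (SE 0.134, adjusted p = 0.0423). This call was close to the threshold, and Jak2 was called in 12 of 22 alternative settings.

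Socs2, a STAT5 target that restrains growth hormone receptor signalling, behaved differently at the days. It had 31.6, 22.5 and 19.0 CPM in the day 9 controls and 38.2, 19.2 and 26.4 CPM in the day 9 siRNA libraries, which overlapped. At day 13 the controls had 51.5, 45.6 and 31.3 CPM and the siRNA libraries 13.1, 8.44 and 8.87 CPM, with no overlap. Socs2 fell by 2.09 at day 13 (SE 0.310, adjusted p = 0.000539), to 23.5% of control, and its day 9 log2 fold change was 0.20 (SE 0.269, adjusted p = 0.692). The difference between the days passed the test at −2.29 (SE 0.410, adjusted p = 0.0168). Without day 13 siRNA replicate 3 the difference was −2.22, with an adjusted p of 0.0549.

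Cish, another feedback inhibitor that STAT5 induces, had 36.9, 28.9 and 14.8 CPM in the day 13 controls and 3.36, 4.17 and 5.04 CPM in the day 13 siRNA libraries, again with no overlap. Its log2 fold change of −2.66 had a large standard error (0.884) and an adjusted p of 0.0586. Over 22 alternative settings Cish at day 13 was called in 9, with adjusted p-values from 0.00106 to 0.198. At day 9 it was 4.24, 8.07 and 20.4 CPM in the controls and 43.0, 9.13 and 10.4 CPM in the siRNA libraries. This wide scatter within each group left the day 9 value, 0.94 (SE 0.712, adjusted p = 0.447), without a direction, and it turned to −0.17 without siRNA replicate 1.

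Igf1, the main endocrine product of growth hormone action in liver, had 798, 982 and 926 CPM in the day 9 controls and 974, 701 and 810.4 CPM in the day 9 siRNA libraries. The day 13 levels were 739, 935 and 890.3 CPM in the controls and 591, 678 and 744 CPM in the siRNA libraries. The groups overlapped at both days, at day 13 only because siRNA replicate 3 (744 CPM) exceeded control replicate 1 (739 CPM). Neither change passed the test: the log2 fold change was −0.12 (95% interval −0.44 to 0.19, adjusted p = 0.640) at day 9 and −0.35 (95% interval −0.67 to −0.03, adjusted p = 0.104) at day 13. The day 13 interval reaches from a fall larger than that of Ghr at day 9 to a value near 0, so it does not show that Igf1 was unchanged.

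Igfals, which encodes the acid-labile subunit, was 151, 149 and 192 CPM in the day 9 controls and 105, 71.0 and 95.3 CPM in the day 9 siRNA libraries. At day 13 the controls had 169, 156 and 148 CPM and the siRNA libraries 82.2, 60.6 and 60.6 CPM. Every siRNA library was below every control library, across both days. Igfals fell by 0.86 at day 9 (SE 0.161, adjusted p = 0.00394), to 55.1% of control, and by 1.22 at day 13 (SE 0.166, adjusted p = 0.000173), to 42.9%. The effects at the days did not pass the test of a difference (−0.36, 95% interval −0.85 to 0.13, adjusted p = 0.444). Igfals is made by hepatocytes, and fewer hepatocytes in the tissue and less of the transcript in each of them cannot be told apart in whole liver. The hepatocyte markers summed to 121400 to 127110 CPM in the day 9 controls, 96157 to 104070 CPM in the day 9 siRNA libraries, 181120 to 208050 CPM in the day 13 controls and 108240 to 172300 CPM in the day 13 siRNA libraries. Albumin makes up most of that sum, and the part of these shifts in the fall of Igfals and Ghr was not tested.

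Since Igfals is a known STAT5b target and had the largest fall of the 9 genes, the sequence before 2 of its 3 start sites is shown. RefSeq (GRCm38.p6) gives start sites for 8 of the 9 genes, in 13 windows that run from 250 bases before to 50 bases after a start. The windows were searched on both strands for TTCNNNGAA (the STAT5 motif, which reads the same on both strands), GTAAACA (FOXO) and TGATGNAAT (ATF4 with C/EBP). Igfals was the only one of the 8 genes with a match. It had a STAT5 match in each of 2 windows, whose starts lie 387 bases apart, and a FOXO match, on the minus strand, in the second. Each sequence is the 250 bases before a start on the plus strand, 5′ to 3′, with motif matches in capitals, the first at chr17:24877594-24877843 and the second at chr17:24877981-24878230.
Igfals, first start: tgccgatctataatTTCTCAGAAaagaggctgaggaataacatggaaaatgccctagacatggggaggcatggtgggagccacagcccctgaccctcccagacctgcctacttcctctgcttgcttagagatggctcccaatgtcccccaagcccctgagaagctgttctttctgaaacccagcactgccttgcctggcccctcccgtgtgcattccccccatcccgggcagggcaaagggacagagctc
Igfals, second start: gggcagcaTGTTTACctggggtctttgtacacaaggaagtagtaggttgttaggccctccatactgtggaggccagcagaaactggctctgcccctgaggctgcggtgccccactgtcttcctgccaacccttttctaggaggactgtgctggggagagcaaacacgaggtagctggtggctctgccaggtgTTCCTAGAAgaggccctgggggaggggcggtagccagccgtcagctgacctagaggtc
The STAT5 matches are TTCTCAGAA, which begins 236 bases before the first start, and TTCCTAGAA, which begins 58 bases before the second, and the FOXO match TGTTTAC begins 242 bases before the second. Among all 27025 genes with a window, 9.55% had a STAT5 match, 4.05% a FOXO match and 1.08% an ATF4-C/EBP match. At 1 of 8 genes for STAT5, 1 of 8 for FOXO and 0 of 8 for ATF4-C/EBP, the members were near that background, and a match of letters is not a measured site.

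**Figure D2:**
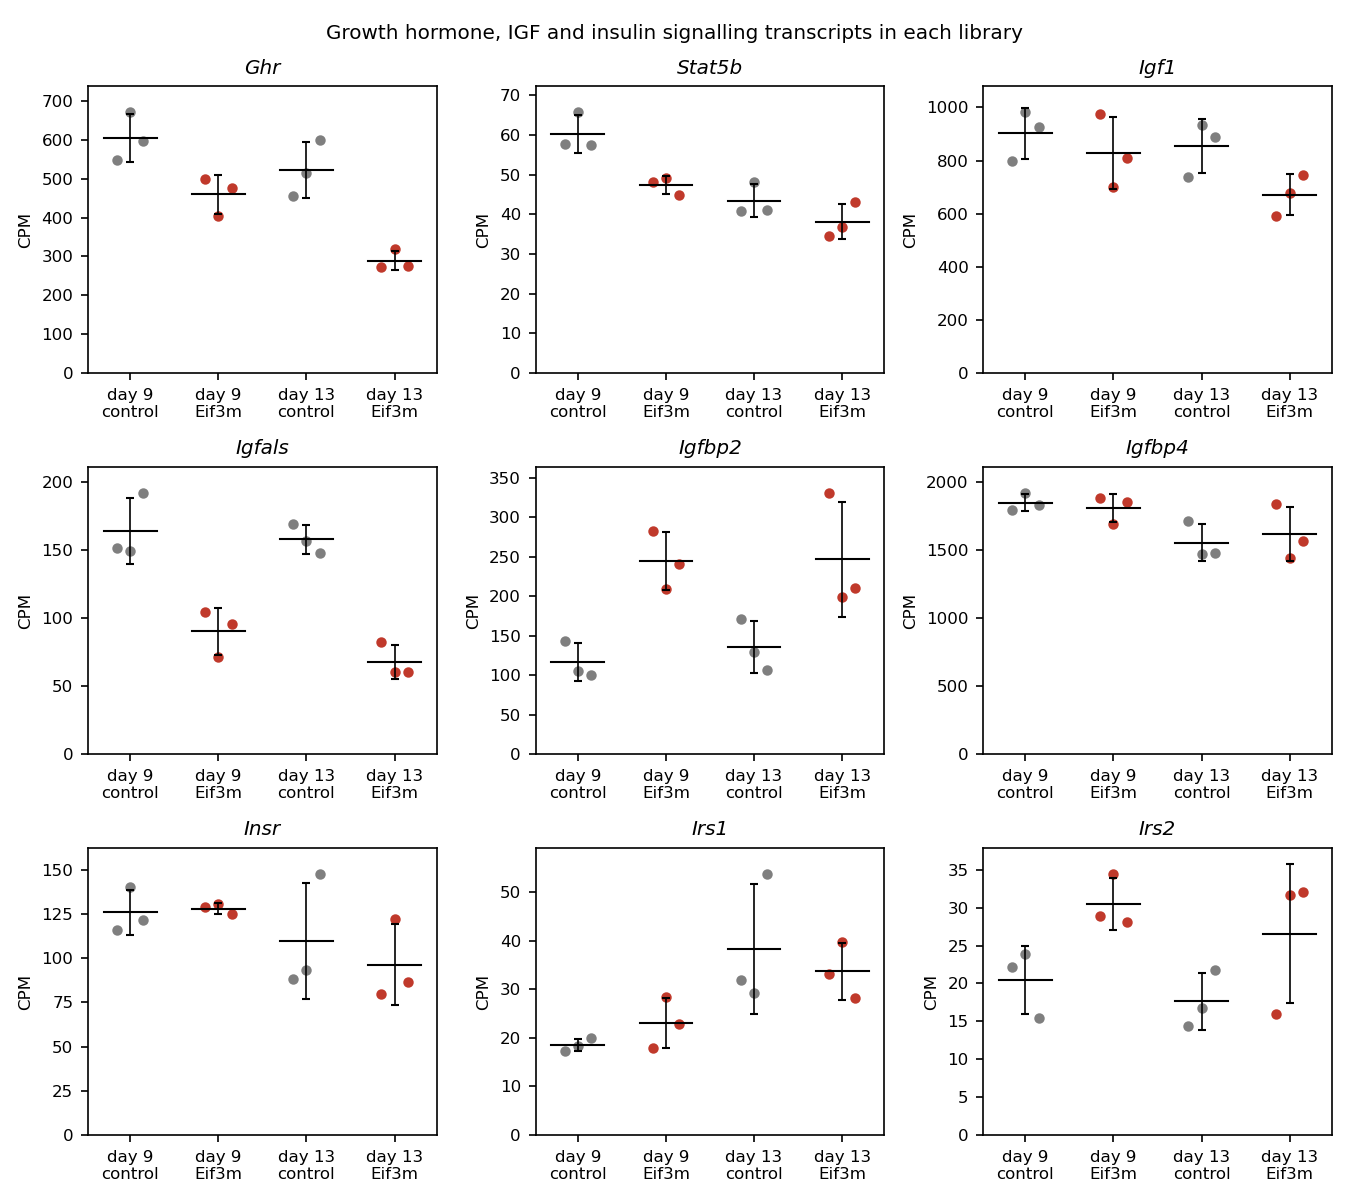
CPM of each of the 9 genes in each library (vertical axes start at 0; points are libraries, grey for control and red for Eif3m siRNA; lines and bars are the mean and SD, n = 3 per group). The siRNA points of Igfals lie below and those of Igfbp2 above the control points at both days, while those of Igfbp4 and Insr overlap.

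Igfbp2, a binding protein gene that is high in states of low insulin or low growth hormone action, was 144, 105 and 99.9 CPM in the day 9 controls and 283, 209.7 and 241 CPM in the day 9 siRNA libraries. At day 13 the controls had 171, 129.7 and 106 CPM and the siRNA libraries 331, 199 and 210.4 CPM. All siRNA libraries exceeded all controls. Igfbp2 rose by 1.07 on the log2 scale at day 9 (SE 0.224, adjusted p = 0.00811), or 2.10-fold, and by 0.86 at day 13 (SE 0.226, adjusted p = 0.0145), or 1.82-fold. The day 13 call was lost without siRNA replicate 1 (0.60, adjusted p = 0.0558), without control replicate 3 (0.69, adjusted p = 0.0685) and without both libraries that stood apart (0.83, adjusted p = 0.0536). The effects at the days differed by −0.21 (95% interval −0.89 to 0.47, adjusted p = 0.784). The sequence before the first Igfbp2 start, shown because Igfbp2 was the only one of the 9 genes to rise, lies at chr1:72824230-72824479 on the plus strand. It held none of the motifs and is 67.2% G and C, against a median of 52.7% over all windows.
Igfbp2, first start: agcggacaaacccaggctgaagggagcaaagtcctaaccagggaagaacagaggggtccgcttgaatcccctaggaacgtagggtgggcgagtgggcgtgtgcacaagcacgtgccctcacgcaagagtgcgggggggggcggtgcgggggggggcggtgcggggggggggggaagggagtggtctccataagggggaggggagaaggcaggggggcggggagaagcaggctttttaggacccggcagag

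Igfbp4 encodes a binding protein that restrains IGF action, and it was the most abundant of the 9 transcripts. It had 1793, 1919.8 and 1836 CPM in the day 9 controls and 1883, 1689 and 1851 CPM in the day 9 siRNA libraries. Its day 13 levels were 1714.5, 1471 and 1481 CPM in the controls and 1836, 1446 and 1569 CPM in the siRNA libraries. The groups overlapped at both days. The log2 fold changes were −0.03 (95% interval −0.29 to 0.22, adjusted p = 0.895) and 0.06 (95% interval −0.20 to 0.31, adjusted p = 0.783), so a change the size of that in Igfbp2 or Igfals lay outside both intervals.

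Igfbp4 and Igfbp2 were set beside the rest of the IGF system in a list of 17 ligands, receptors, binding proteins and their proteases, of which 13 were tested. At day 9, 2 rose and 2 fell (15.4% each), against 5.94% and 6.84% of all genes tested. At day 13, 2 rose (15.4%) and 3 fell (23.1%), against 12.8% and 10.9%, so the share of rises was near background. The list medians were −0.03 and −0.35. Those that rose were Igfbp1 and Igfbp2, at both days, and those that fell were Igfals and Igfbp5 at day 9 and Igfals, Igfbp3 and Igfbp7 at day 13. Igf2, a fetal ligand, was at most 0.855 CPM in any library, and Igf1r, the IGF1 receptor, at most 3.89 CPM, and neither passed the test at either day.

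Igfbp1, which insulin represses through FOXO1 and which rises in fasting and stress, had the largest rise on the IGF list. It had 4.96, 3.63 and 3.64 CPM in the day 9 controls and 31.0, 30.5 and 27.1 CPM in the day 9 siRNA libraries. The day 13 levels were 4.71, 15.5 and 4.55 CPM in the controls and 37.5, 50.4 and 185 CPM in the siRNA libraries. The siRNA libraries were above all controls at both days, and siRNA replicate 3 of day 13 was far above the others. Igfbp1 rose by 2.86 at day 9 (SE 0.638, adjusted p = 0.0203), or 7.25-fold, and by 3.49 at day 13 (SE 0.693, adjusted p = 0.00624), or 11.3-fold. Without day 13 siRNA replicate 3 the day 13 value was 2.43 (adjusted p = 0.00352). The day 13 call was lost when each day was fitted alone (adjusted p = 0.0733), and the day 9 call when any one of the 3 day 9 controls or siRNA replicate 1 or 2 was left out (adjusted p up to 0.0684).

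Igfbp3 encodes the binding protein of the large circulating complex that IGF1 and the acid-labile subunit form. It had 33.7, 36.1 and 32.3 CPM in the day 9 controls and 42.1, 38.4 and 42.3 CPM in the day 9 siRNA libraries, and 55.0, 70.4 and 43.9 CPM against 35.1, 34.1 and 26.7 CPM at day 13. The siRNA libraries were thus above the controls at day 9 and below them at day 13. It fell by 0.82 at day 13 (SE 0.158, adjusted p = 0.00217), the day 9 log2 fold change was 0.27 (adjusted p = 0.275), and the difference between the days was −1.08 (SE 0.218, adjusted p = 0.0218). Igfbp3 in liver is made largely outside hepatocytes, and marker lists of other liver cells are given beside it. Their shares are read against all genes tested, of which 5.94% rose and 6.84% fell at day 9. At day 13, 12.8% of all genes tested rose and 10.9% fell. Of 9 endothelial markers, 1 rose at day 9 (11.1%), near its background, and 3 fell at day 13 (33.3%). Their sums were 319 to 349 CPM in the day 9 controls and 346 to 388 CPM in the day 9 siRNA libraries. At day 13 the sums were 339.9 to 414 CPM in the controls and 294 to 328 CPM in the siRNA libraries.

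Of 8 Kupffer cell markers, 5 fell at day 9 (62.5%) and 6 at day 13 (75%). Their sums were 239 to 289.6 CPM and 154 to 185 CPM in the control and siRNA libraries of day 9. At day 13 the sums were 202 to 269 CPM and 94.0 to 159 CPM. Of 10 stellate cell markers, 1 rose (10%) and 1 fell (10%) at day 9, near background, and 5 fell at day 13 (50%). Their sums in the control and siRNA libraries were 354 to 452 CPM and 427 to 467 CPM at day 9. At day 13 the sums were 598 to 731 CPM and 439 to 467 CPM. Of 8 monocyte markers, 3 rose at day 9 (37.5%) and 3 fell at day 13 (37.5%). Their sums in the control and siRNA libraries were 44.2 to 54.9 CPM and 109 to 125 CPM at day 9. At day 13 the sums were 109 to 152 CPM and 66.8 to 81.8 CPM. Of 5 cholangiocyte markers tested, 1 rose at day 13 (20%), and their sums lay between 20.5 and 34.9 CPM in all libraries. No marker of any of these lists was at 0 in all libraries, and the part of these cells in the values of Igfbp3 and Igfbp5 was not tested. Igfbp5, which stellate and other stromal cells make, had 19.2, 28.0 and 38.1 CPM in the day 9 controls and 13.5, 8.97 and 12.6 CPM in the day 9 siRNA libraries. It fell by 1.28 at day 9 (SE 0.246, adjusted p = 0.00514), and the day 13 value of −0.83 missed the threshold (adjusted p = 0.0531). Igfbp5 at day 13 was called in 9 of 22 alternative settings, with adjusted p-values from 0.0203 to 0.260.

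**Figure D3:**
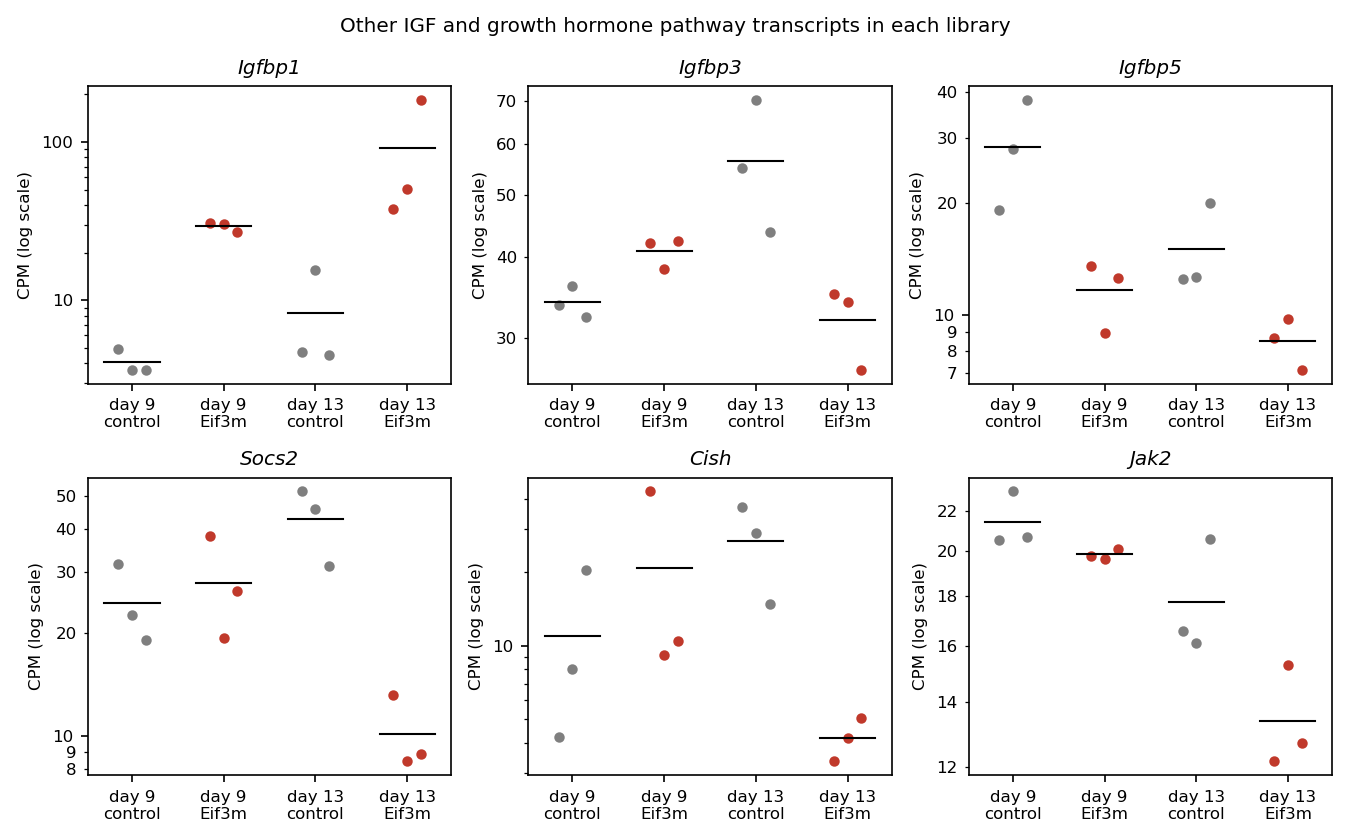
CPM on a log axis of 6 further IGF and growth hormone pathway genes in each library (points are libraries, grey for control and red for Eif3m siRNA; lines are group means, n = 3). Igfbp1 is higher in the siRNA libraries at both days, and Socs2 and Cish are separated from their controls at day 13 and overlap them at day 9.

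Insr, the insulin receptor gene, had 116, 140.4 and 121 CPM in the day 9 controls and 129, 131 and 125 CPM in the day 9 siRNA libraries. Its day 13 levels were 88.0, 93.6 and 148 CPM in the controls and 79.9, 122 and 86.5 CPM in the siRNA libraries. The groups overlapped at both days, and the highest value of each day 13 group came from the library that stood apart on the third component. The log2 fold changes were 0.02 (95% interval −0.38 to 0.43, adjusted p = 0.953) and −0.19 (95% interval −0.60 to 0.23, adjusted p = 0.524), and without those libraries the day 13 value was −0.14.

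Irs1, an adaptor that links the insulin and IGF1 receptors to PI3 kinase, had 17.4, 18.3 and 19.9 CPM in the day 9 controls and 18.0, 28.3 and 22.8 CPM in the day 9 siRNA libraries. Irs1 levels at day 13 were 31.9, 29.2 and 53.7 CPM in the controls and 33.1, 39.8 and 28.1 CPM in the siRNA libraries. The groups overlapped at both days, and the same libraries held the highest values at day 13. The log2 fold changes were 0.31 (95% interval −0.15 to 0.78, adjusted p = 0.379) at day 9 and −0.19 (95% interval −0.68 to 0.30, adjusted p = 0.598) at day 13, and the latter was −0.02 without those libraries. Of the Irs1 exon bases, 2822 overlap a gene on the opposite strand, Gm9747, and the strand setting of the counting is not given, so reads of the pair could be mixed.

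Irs2, the other main insulin receptor adaptor of hepatocytes and itself a FOXO1 target, had 22.1, 23.9 and 15.4 CPM in the day 9 controls and 28.9, 34.4 and 28.1 CPM in the day 9 siRNA libraries. Irs2 levels at day 13 were 14.4, 16.8 and 21.8 CPM in the controls and 15.9, 31.6 and 32.1 CPM in the siRNA libraries. The siRNA libraries were above all controls at day 9, and at day 13 siRNA replicate 1 lay among the controls. The log2 fold changes were 0.57 (95% interval 0.07 to 1.08, adjusted p = 0.131) and 0.59 (95% interval 0.04 to 1.15, adjusted p = 0.115), and neither passed the test. Of 22 alternative settings, 3 called Irs2 at day 9, with day 9 fitted alone (adjusted p = 0.0384), without day 13 siRNA replicate 1 (adjusted p = 0.0453) and with the replicate number as a block (adjusted p = 0.0447). At day 13, 2 of the 22 called it, the replicate block (adjusted p = 0.0481) and the fit without siRNA replicate 1, where the log2 fold change was 0.85 (adjusted p = 0.0110). A further 162 exon bases of Irs2 overlap the opposite-strand transcript 9530052E02Rik.

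Downstream of these adaptors, the list of the insulin receptor, its substrates, PI3 kinase, AKT and related kinases had 28 genes, all tested. At day 9, 1 rose (3.57% of the list), and at day 13, 3 rose (10.7%) and 1 fell (3.57%), each a smaller share than over all genes. No fall was called at day 9 by edgeR, DESeq2 or limma-voom. At an unadjusted p under 0.05, 2 rose and 1 fell at day 9, beside 3902 of all 14248 genes tested in either direction. Mapkap1, which encodes a subunit of the mTORC2 kinase complex, rose by 0.34 at day 9 (SE 0.0981, adjusted p = 0.0375) and by 0.49 at day 13 (SE 0.103, adjusted p = 0.00371). Rictor, another mTORC2 subunit, rose by 0.63 at day 13 (adjusted p = 0.0466), as did the kinase gene Gsk3b by 0.54 (adjusted p = 0.0427), and Akt1 fell by 0.30 (adjusted p = 0.0489). Of 22 alternative settings, Mapkap1 was called in 14 at day 9 and in 22 at day 13, Gsk3b in 13, Rictor in 6 and Akt1 in 6. Akt2, the main hepatic AKT, had log2 fold changes of −0.11 and 0.03, Pik3r1, a regulatory subunit of PI3 kinase, of 0.14 and −0.39, and Foxo1 of −0.14 and 0.29, and none of these passed the test.

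Among 15 genes for inhibitors of insulin signalling, 14 were tested and 2 rose at each day (14.3%). Of all genes tested, 5.94% rose at day 9 and 12.8% at day 13, so the day 13 share was near background. Falls called by edgeR were 0 at each day, with 0 at day 9 and 5 at day 13 at an unadjusted p under 0.05, and DESeq2 called 0 and 1 and limma-voom 0 and 0. Trib3, a pseudokinase that binds AKT and a textbook target of the ATF4 stress response, had 11.9, 10.8 and 8.52 CPM in the day 9 controls and 21.6, 47.7 and 31.6 CPM in the day 9 siRNA libraries. Trib3 levels at day 13 were 2.42, 2.42 and 1.52 CPM in the controls and 70.2, 61.9 and 92.1 CPM in the siRNA libraries. Every siRNA library was above every control. It rose by 1.69 at day 9 (SE 0.255, adjusted p = 0.00140) and by 5.16 at day 13 (SE 0.350, adjusted p = 2.69e-06), and the difference of 3.47 between the days passed the test (adjusted p = 0.00277). Ptpn1, a phosphatase that acts on the insulin receptor, rose by 0.35 at day 9 (adjusted p = 0.0455). Of 22 alternative settings, Ptpn1 was called in 10. Grb10, an adaptor that dampens the receptor, had log2 fold changes of 0.45 (adjusted p = 0.209) and 0.40 (adjusted p = 0.284).

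Of 11 lipogenic and glycolytic transcripts that insulin induces in liver, 8 fell at day 9 and 8 at day 13, and the other 3 at each day did not pass the test. That is 72.7% of the list at each day, against 6.84% and 10.9% of all genes tested that fell. The list medians were −0.82 and −1.06 on the log2 scale. Without the 2 libraries that stood apart, 10 fell at day 9 and 8 at day 13. Srebf1, the lipogenic transcription factor gene, fell by 0.79 and 1.26 at day 9 and day 13. Its target Fasn, the fatty acid synthase gene, fell by 1.83 and 2.39, and Scd1, for a fatty acid desaturase, by 1.14 and 1.58. Pklr, for liver pyruvate kinase, fell by 0.73 and 1.05, and Pnpla3, for a lipid droplet protein, by 3.30 and 4.21. Pnpla3 was near the floor in the siRNA libraries, at 0.640 to 1.54 CPM at day 9. At day 13 it was at 0.438 to 0.742 CPM there, or 4 to 8 counts, so the size of its fall is uncertain. None of these genes passed the test of a difference between the days, with adjusted p-values of 0.290 for Srebf1 to 0.633 for Pnpla3.

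The 10 insulin-repressed FOXO1 targets did not move one way. At day 9, 3 rose (30%) and 2 fell (20%), against 5.94% and 6.84% of all genes tested. At day 13, 2 rose (20%) and 1 fell (10%), against 12.8% and 10.9%. The list medians were 0.09 and −0.03. At day 9 Igfbp1 rose together with Pck1 and G6pc, which encode enzymes of glucose production, Pck1 by 1.50 (adjusted p = 0.000816) and G6pc by 2.37 (adjusted p = 0.00166). G6pc had 27.5, 31.5 and 46.3 CPM in the day 9 controls and 91.9, 250.5 and 202 CPM in the day 9 siRNA libraries, with no overlap. At day 13 it had 149, 204 and 214 CPM in the controls and 159.9, 128 and 183 CPM in the siRNA libraries, which overlapped. The day 13 controls lay within the range of the day 9 siRNA libraries, a comparison across library sets. The difference in effect, −2.64 (SE 0.469), passed the test (adjusted p = 0.0193), but not without the 2 libraries that stood apart (−2.41, adjusted p = 0.0856).

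Pck1 did not pass the test at day 13 (0.41, adjusted p = 0.190). Apoc3, an apolipoprotein gene, fell by 0.97 at day 9 (adjusted p = 0.00309) and by 1.45 at day 13 (adjusted p = 7.55e-05), opposite to Igfbp1 on the same list. Ppargc1a, a coactivator gene of the fasting response, fell by 0.57 at day 9 (adjusted p = 0.0158). Bcl6, a repressor gene that growth hormone lowers in liver through STAT5, had 2.29, 2.56 and 5.42 CPM in the day 13 controls and 41.4, 47.5 and 50.2 CPM in the day 13 siRNA libraries, and rose by 3.72 (SE 0.692, adjusted p = 0.00422). At day 9 its log2 fold change was 0.09 (adjusted p = 0.939), and the difference between the days missed the threshold (3.63, adjusted p = 0.0623).

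**Figure D4:**
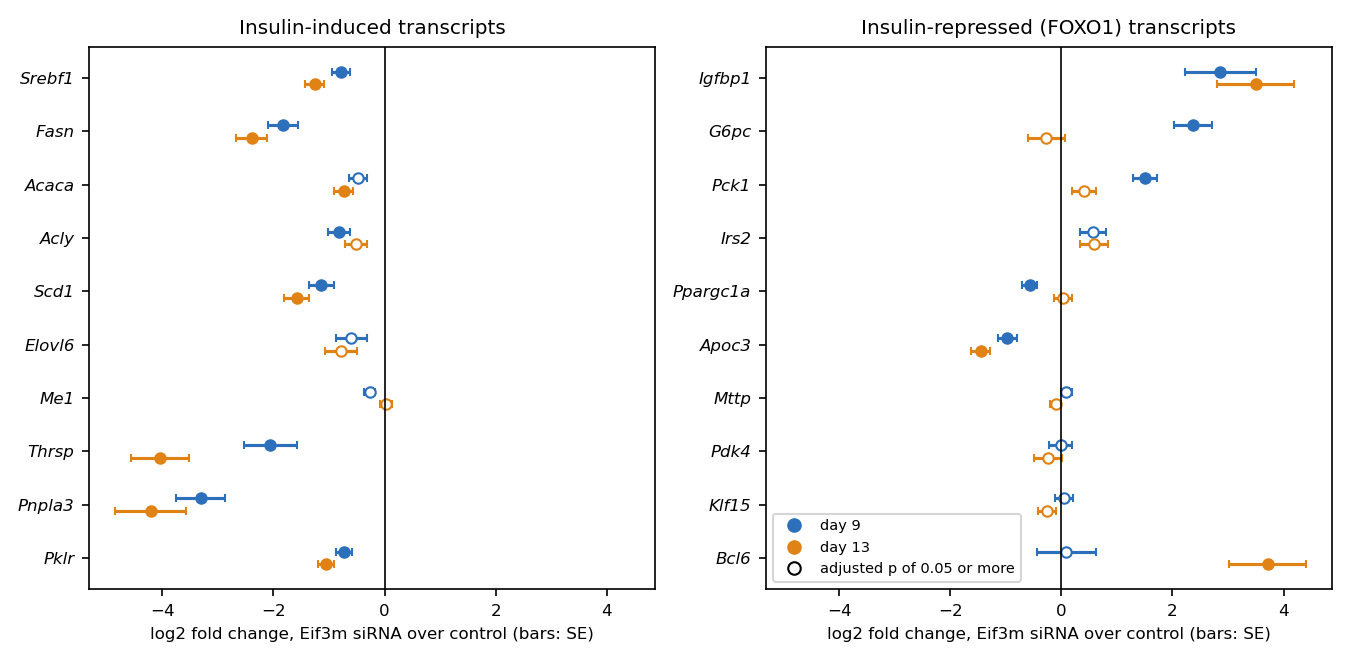
Log2 fold change of Eif3m siRNA over control (horizontal axes; bars are the standard error) of 10 of the 11 insulin-induced transcripts (left) and 10 insulin-repressed FOXO1 target transcripts (right) at day 9 (blue) and day 13 (orange), filled where the adjusted p is under 0.05. The left panel holds 7 of the 8 falls at each day, and the right panel rises and falls.

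Levels were compared between genes per kilobase of merged exons. Merged exons include every annotated exon, whether or not the liver uses it. In the day 9 controls Igfbp4 led with 419 ± 14.6 CPM per kilobase (SD, n = 3), followed by Igf1 at 91.1 ± 9.55, Ghr at 66.9 ± 6.81, Igfbp2 at 63.0 ± 12.9 and Igfals at 51.8 ± 7.61. Below these were Stat5b at 10.9 ± 0.854, Insr at 9.16 ± 0.934, Irs2 at 3.24 ± 0.706 and Irs1 at 2.02 ± 0.139 CPM per kilobase. In the day 9 siRNA group Igfbp2, at 133 ± 19.9 CPM per kilobase, was above Igf1 at 83.7 ± 13.8, and at day 13 it was again above Igf1 in the siRNA group, at 134 ± 39.6 against 67.7 ± 7.77. This order depends on the lengths used, 9.904 kilobases for Igf1 and 1.847 for Igfbp2. In CPM, Igf1 was above Igfbp2 in both siRNA groups, at 829 against 245 at day 9 and 671 against 247 at day 13. Igfals stood at 28.5 ± 5.46 CPM per kilobase in the day 9 siRNA group and at 21.4 ± 3.94 in that of day 13. Ghr reached its lowest level, 32.0 ± 2.76 CPM per kilobase, in the day 13 siRNA group.

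Group means are ordered here across the days, and so across the library sets. The mean CPM of Ghr went from the day 9 controls to the day 13 controls, the day 9 siRNA group and the day 13 siRNA group. Only the last step was free of overlap between libraries. For Igfals both control groups came first, overlapping each other, then both siRNA groups, overlapping each other, with a gap between controls and siRNA. Igfbp2 had the reverse order, both siRNA groups above both control groups, again with a gap. For Stat5b only the day 9 controls stood clear of the next group, and for Igf1, Igfbp4, Insr, Irs1 and Irs2 every step between neighbours in the order showed overlap.

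**Figure D5:**
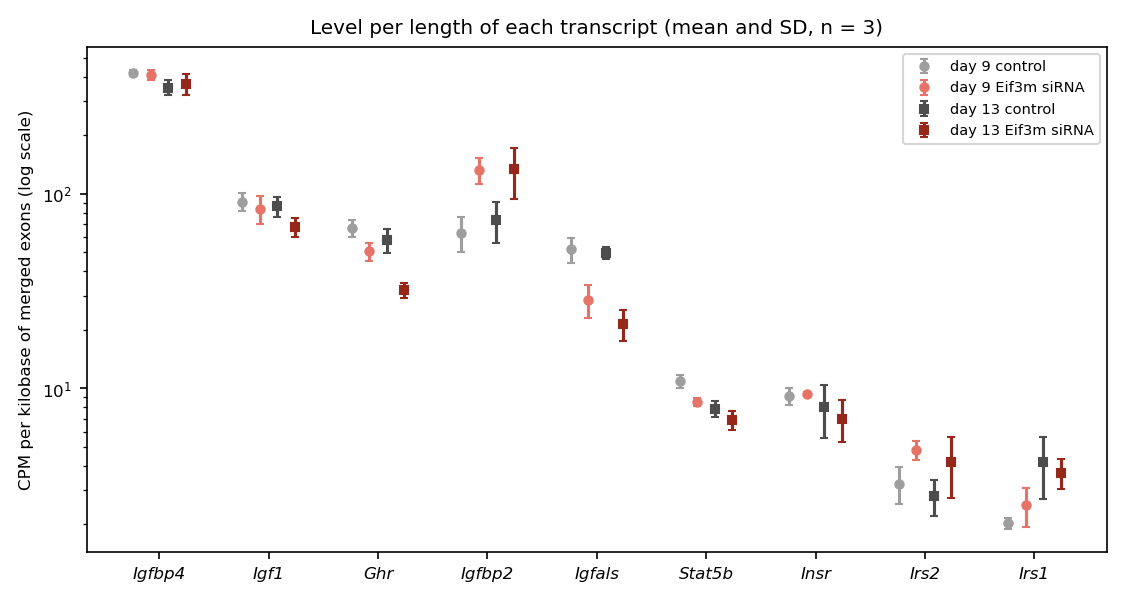
Mean level per kilobase of merged exons (vertical log axis; bars are SD, n = 3 libraries per group) of each of the 9 genes, ordered by the day 9 controls. Igfbp4 is highest and Irs1 and Irs2 are lowest. On this scale, though not in CPM, Igfbp2 lies above Igf1 in both siRNA groups only.

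Across the 12 libraries, log2 CPM centred within each day showed how the 9 genes varied together. The libraries share the siRNA contrast, so these correlations are a description that includes the group difference. Pearson's r was 0.87 between Ghr and Igfals, 0.80 between Ghr and Igf1 and 0.71 between Insr and Irs1. It was negative between Ghr and Igfbp2 (−0.82), between Stat5b and Igfbp2 (−0.81) and between Igfals and Irs2 (−0.83). The day 13 libraries that stood apart held the highest values of their groups for both Insr and Irs1. The r of Insr and Irs1 without these libraries was not computed. For Igfbp4, r with the other 8 ran from −0.59 with Insr and −0.50 with Irs2 to 0.37 with Igfbp2.

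Among 9311 genes whose mean reached 5 CPM, the one most like Igfals was Dmgdh, for a mitochondrial enzyme of choline breakdown (r = 0.99), which fell by 0.47 at day 9 and by 0.70 at day 13. The nearest gene to Ghr was Rdh10, for a retinol dehydrogenase (r = 0.98), and that to Insr was Lrp6, for a Wnt co-receptor (r = 0.98). For Igf1 it was Ccpg1 (r = 0.95), for Igfbp2 9130401M01Rik (r = 0.95), for Irs2 Nhsl1 (r = 0.95) and for Stat5b C130074G19Rik (r = 0.94). Igfbp4 was nearest to Adipor1, for an adiponectin receptor (r = 0.92), and Irs1 to Trip11 (r = 0.90).

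In the GRCm38 annotation all 9 are protein-coding genes. Ghr (ENSMUSG00000055737) lies on chromosome 15 from 3317760 to 3583492, Stat5b (ENSMUSG00000020919) on chromosome 11 from 100780731 to 100850724, and Insr (ENSMUSG00000005534) on chromosome 8 from 3122061 to 3279617, all on the minus strand. Igf1 (ENSMUSG00000020053) lies on chromosome 10 from 87858265 to 87937042, Igfals (ENSMUSG00000046070) on chromosome 17 from 24865997 to 24882010, Igfbp2 (ENSMUSG00000039323) on chromosome 1 from 72824503 to 72852474, and Igfbp4 (ENSMUSG00000017493) on chromosome 11 from 99041244 to 99054392, all on the plus strand. Irs1 (ENSMUSG00000055980) lies on chromosome 1 from 82233101 to 82291416 and Irs2 (ENSMUSG00000038894) on chromosome 8 from 10984681 to 11008458, both on the minus strand. Apart from Irs1 and Irs2, none of the 9 has an exon overlapping that of another gene.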

How the data were processed

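The values analysed are the deposited estimated counts, 1 per Ensembl gene in each of 12 libraries. They were taken as rounded RSEM expected counts, because all are whole numbers. STAR 2.5.3a, RSEM 1.3.0 and mm10 are named, per the submitters' processing notes. Annotation release, strand setting and filters were not given in the sources used. Symbols and positions came from GENCODE M21 (50462 identifiers matched, and the other 224 held 0.0199% of counts). Of 141 list symbols, 140 were found.

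Genes were filtered with filterByExpr (minimum count 10), scaled by TMM and tested with edgeR 4.0.16's two-sided quasi-likelihood test with robust dispersion, on 4 groups of 12 libraries, with Benjamini-Hochberg adjustment over 14248 genes. CPM use the TMM-scaled totals. No pair of replicates agreed within sampling noise. The steps were tested on simulated data. Alternatives used DESeq2 1.42.0, limma 3.58.1, other scalings and filters, a replicate block, each day alone, thinned day 9 counts, each library left out, and, chosen after seeing the data, 2 libraries left out together.

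Members and lists were chosen with earlier results of these data known. Named genes were the 9 members, Eif3m, up to 4 called genes per list and day, 13 preset genes, and each member's nearest gene. Some of these are not reported here. Other names were chosen after their values were seen. R 4.3.3 and Python 3.11.15 with matplotlib 3.10.9 were used.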

Additional observations from a re-analysis of the deposited data

Results flagged for a closer look

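Of the genes named, 4 had an siRNA effect that differed between the days by the test of the difference itself. The day 13 effect minus the day 9 effect was −2.64 on the log2 scale for G6pc, 3.47 for Trib3, −1.08 for Igfbp3 and −2.29 for Socs2. Each passed the adjusted threshold in edgeR's quasi-likelihood test. Day and library set cannot be told apart in these differences. Of 21 alternative settings, Trib3 was called in 21, Socs2 in 20, G6pc in 17 and Igfbp3 in 16. None of the 9 growth hormone, IGF and insulin signalling genes was among them.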

How the results depend on the processing

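Over 22 alternative settings per day, Igfals at both days, Igfbp2 at day 9 and Ghr at day 13 were called in all. Igfbp2 at day 13 was called in 19, Irs2 in 3 at day 9 and 2 at day 13, and Igf1, Igfbp4, Insr and Irs1 in none. Ghr and Stat5b at day 9 were each called in 6 of the 22, among them DESeq2, limma-voom and day 9 fitted alone. The number of members called at day 9 was 2, against 4 by DESeq2, 4 by limma-voom, 5 with each day fitted alone and 4 without both libraries that stood apart, and 2 to 4 with 1 library left out. Genes called at day 9 numbered 1821, against 2599 by DESeq2, 2749 by limma-voom, 3412 with each day fitted alone and 1186 with thinned day 9 counts. They numbered 3050 without both libraries, and 884 to 2250 with 1 library left out. At day 13 they numbered 3377, against 2014 with each day fitted alone. For the difference between the days they numbered 364, against 991 by DESeq2 and 130 to 508 with 1 library left out. Upper-quartile scaling gave 86 higher and 290 lower for that difference, against 128 and 236. The sign was compared only for values more than 1 standard error from 0, and by that rule the only reversal was Cish at day 9, between −0.17 and 1.76 with 1 library left out. The causes of these shifts were not tested.

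Replicate numbers are shared between the groups, but same-numbered libraries did not deviate together (correlations −0.0853, −0.143 and 0.0879 at day 9 and 0.0808, −0.0622 and −0.0139 at day 13), so the numbers were not taken as pairs. With the replicate number as a block, 1216 genes and 3 members were called at day 9, 2681 genes and 4 members at day 13, and 117 genes and 0 members for the difference. Irs2 was the added member at both days, at 0.59 at day 9 (adjusted p = 0.0447) and 0.55 at day 13 (adjusted p = 0.0481).

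Day 13 libraries held fewer counts and spread more, and 3 libraries per group leave wide intervals for the uncalled members. In the main model, which shares the spread of a gene over both days, 3377 genes were called at day 13 and 1821 at day 9. With each day fitted alone the order was the reverse, 2014 at day 13 and 3412 at day 9. The number of calls therefore does not compare the days.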
